A study of Mus musculus with 36 samples.

Results

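The 8 libraries described here, of 36 in the series, compare cultured enteric glial cells (EGCs) kept for 24 h in medium conditioned by healthy colon (H-CM) with EGCs left unstimulated for the same 24 h. They were taken by their treatment and time labels, which put 4 libraries in each group. All cells were of wild-type genotype and came from the intestines of C57BL/6J mouse embryos. They were grown first as neurospheres and then as attached cells in serum-containing medium. Which medium the unstimulated cells had during the 24 h is not given in the sources used here, so serum may differ between the groups. H-CM was made by leaving cells digested out of healthy colon in culture medium overnight, so it can carry what any cell of the digest released, and the unstimulated cells received no medium of that kind. The libraries counted the 3' ends of polyadenylated transcripts, and the question put to them was which genes the medium of healthy tissue changed on its own, apart from any tumor. The labels do not say whether the 4 libraries of a group came from separate cultures or embryos, so the p-values measure the spread between these libraries, which may be technical.

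EGCs are the glial cells of the gut wall, related to astrocytes and Schwann cells, and they are known for responding to cytokines. Type I interferons act through a receptor that activates factors such as Stat2 and Irf9, which switch on a large set of antiviral genes. Acute-phase proteins and chemokines are typically switched on through NF-kB and STAT3. Genes of the contractile apparatus, such as smooth muscle actin, are driven by serum response factor and its actin-sensing partners and are high in cells that spread on a stiff, coated surface in serum.

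Total counts ran from 4064537 to 6778936 in the unstimulated libraries and from 1608018 to 7552509 in the H-CM libraries, the lowest being H-CM replicate 4. A single gene, Yam1, took 12.7% to 30.7% of the counts of the unstimulated and 13.9% to 18.5% of those of the H-CM libraries. Levels are given below as CPM, counts scaled to a common library total after TMM correction of the totals. The glial markers of the cultures were measured in both groups, with Sox10 at 72.5 ± 12.9 CPM in unstimulated and 74.3 ± 6.27 CPM in H-CM EGCs (SD, n = 4 each), S100b at 75.3 ± 12.7 and 91.0 ± 24.9 CPM, and Gfap at 3.91 ± 0.858 and 3.59 ± 0.841 CPM. Genes listed as markers of other cells were also high, and whether other cells or glia carried them was not tested. Smooth muscle markers summed to 12040 ± 977.7 CPM and fibroblast markers to 8390 ± 846.1 CPM in unstimulated EGCs, against 676.5 ± 37.6 CPM for the 17 enteric glial markers. Counts of 3' ends were not scaled by length. In bulk RNA, fewer cells of a type and less RNA per cell cannot be told apart. H-CM replicate 1 stood apart from the other H-CM libraries. It held the highest H-CM value for 103 of the 136 genes called higher (75.7%), where it held the highest value for 30.5% of all genes tested.

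With edgeR's quasi-likelihood test and a Benjamini-Hochberg adjusted p under 0.05, 258 of 12713 genes were called, which is 2.03% of them. Of these, 136 rose (1.07%) and 122 fell (0.960%), and the median change of all genes tested was 0.00185 on the log2 scale. The genes that rose moved further. Their median change was 1.44 on the log2 scale and 83 of the 136 at least doubled, while the genes that fell had a median of -0.77 and 39 of the 122 fell by a log2 change of 1 or more. The genes that fell were the more abundant, with a median of 110 CPM against 22.8 CPM for those that rose. In 130 of the 136 and 118 of the 122 every H-CM library lay beyond every unstimulated library, as it did in 8.15% of all genes tested. The number of calls depended on the model: 34 genes were called when all 36 libraries shared one estimate of the spread, and 410 with DESeq2.

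**Figure D1:**
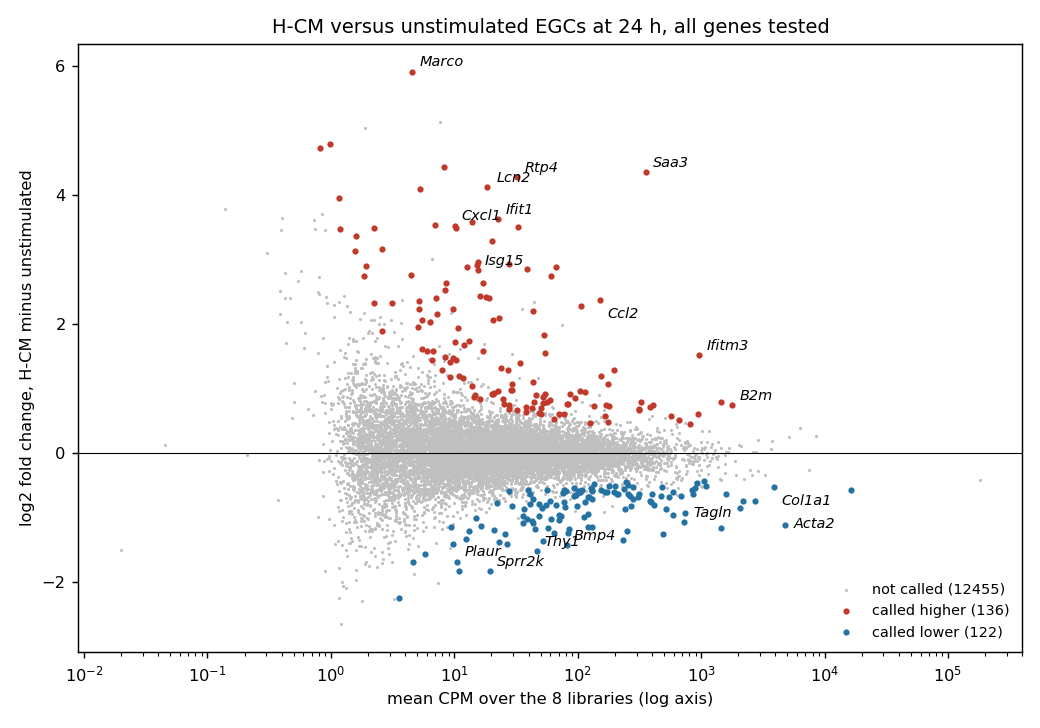
Each point is 1 of the 12713 genes tested at 24 h, by its mean level over the 8 libraries (CPM, log axis) and its log2 fold change, H-CM minus unstimulated; genes called higher are red and genes called lower are blue. The 136 genes called higher reach a log2 change of 5.91 (Marco, a fitted value that rests on 3 counts in the unstimulated libraries), whereas the 122 called lower, which include the abundant Acta2, Tagln and Col1a1, lie mostly between -0.44 and -2.

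Interferon-stimulated genes were the largest group to rise. Of 34 type I interferon-stimulated genes listed, 29 were tested. Of these 20 rose and none fell, where 1.07% of all genes tested were called higher. All 29 had a positive change, with a median of 2.16 on the log2 scale against 0.00185 over all genes tested. Like the other lists, this one was chosen with earlier results of these data known, so its count is not independent support. The 20 calls became 17 when H-CM replicate 1 was left out and 10 in the model of all 36 libraries. Rtp4, a chaperone of receptors that is induced by interferon, gave the largest change. It measured 3.99, 2.37, 2.73 and 3.78 CPM in the unstimulated libraries and 120, 52.3, 40.1 and 33.1 CPM in the H-CM libraries. That was a 19.4-fold rise (log2 4.28 ± 0.50 SE, adjusted p = 0.000891, edgeR), and the lowest H-CM library of Rtp4 stood well above the highest unstimulated one. Usp18, which removes Isg15 from proteins and restrains the interferon receptor, rose 11.9-fold (log2 3.58 ± 0.48, adjusted p = 0.000891). Its libraries held 1.43, 2.73, 0.802 and 3.50 CPM without and 50.9, 20.3, 21.2 and 10.8 CPM with H-CM.

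Ifit1, which binds viral RNA, measured 0.571, 5.46, 1.12 and 5.74 CPM in unstimulated and 71.1, 41.5, 37.4 and 17.7 CPM in H-CM EGCs (log2 3.62 ± 0.57, adjusted p = 0.00716). Isg15, an interferon-induced ubiquitin-like protein that is attached to other proteins, went from 3.99, 3.28, 0.802 and 7.28 CPM to 38.9, 28.6, 28.1 and 13.1 CPM (log2 2.84 ± 0.46, adjusted p = 0.00532). In both genes the groups did not overlap, but unstimulated libraries differed among themselves by several fold and H-CM replicate 4 was the lowest of its group. Ifi44 rose by a log2 change of 3.50 ± 0.57 (adjusted p = 0.00952) over a similar unstimulated spread of 0.571 to 10.9 CPM. Without unstimulated replicate 4 the log2 change was 4.22 for Ifi44 and 3.48 for Isg15.

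The factors that carry the interferon signal rose as well. Irf9, the DNA-binding part of the complex that Stat2 joins, went from 23.4 ± 6.52 to 83.7 ± 18.3 CPM (log2 1.82 ± 0.19, adjusted p = 1.38e-05). Stat2 went from 8.62 ± 2.20 to 37.3 ± 14.2 CPM (log2 2.10 ± 0.27, adjusted p = 0.000125). Irf7, the factor that amplifies interferon production, went from 2.36 ± 1.11 to 14.9 ± 6.47 CPM (log2 2.63 ± 0.39, adjusted p = 0.000799). Irf9 shares exon sequence with Rnf31 on the same strand, so its counts are uncertain as those of a separate gene. Irf7 overlaps an exon of Phrf1 on the other strand, and whether the counting used strand is not given in the sources used here.

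Sensors and effectors followed. Ddx58, which encodes the RNA sensor RIG-I, rose from 27.6 ± 3.41 to 80.0 ± 20.3 CPM (log2 1.54 ± 0.17, adjusted p = 1.50e-05). Ifitm3, which blocks viral entry and was the most abundant gene of those named here from the list, rose from 442 to 551 CPM over the unstimulated libraries to 1050 to 2081 CPM over the H-CM libraries (log2 1.51 ± 0.17, adjusted p = 3.59e-05). Bst2, which tethers budding virus, rose with a log2 change of 2.88 ± 0.48 (adjusted p = 0.0107), with 253 CPM in H-CM replicate 1 and 62.8 to 92.2 CPM in the others, and its call was lost without unstimulated replicate 1 (adjusted p = 0.0529) or 2 (adjusted p = 0.0522). Without H-CM replicate 1 its log2 change was 2.20. Oasl2 and Rsad2 were called narrowly, at adjusted p = 0.0377 and 0.0267. Each lost its call when any of 7 of the 8 libraries was left out, all but H-CM replicate 4 for Oasl2 (adjusted p up to 0.116) and all but H-CM replicate 3 for Rsad2 (up to 0.135).

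The start regions of Isg15 and Ifit1 are shown because they carry the letters of the interferon response element, to which the complex that holds Stat2 and Irf9 is known to bind. Both are RefSeq sequences of build GRCm38.p6, 300 bases from 250 before the start of transcription, written 5' to 3' on the strand of the gene, with each match to GAAANNGAAA in either direction in capitals. Isg15 lies on the minus strand, chr4:156200769-156201068, and Ifit1 on the plus strand, chr19:34640639-34640938.
Isg15: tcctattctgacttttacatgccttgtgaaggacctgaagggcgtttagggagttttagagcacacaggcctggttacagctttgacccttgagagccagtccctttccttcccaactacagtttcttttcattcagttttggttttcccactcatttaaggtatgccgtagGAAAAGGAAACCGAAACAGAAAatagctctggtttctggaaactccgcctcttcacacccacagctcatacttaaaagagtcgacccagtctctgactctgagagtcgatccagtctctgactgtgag
Ifit1: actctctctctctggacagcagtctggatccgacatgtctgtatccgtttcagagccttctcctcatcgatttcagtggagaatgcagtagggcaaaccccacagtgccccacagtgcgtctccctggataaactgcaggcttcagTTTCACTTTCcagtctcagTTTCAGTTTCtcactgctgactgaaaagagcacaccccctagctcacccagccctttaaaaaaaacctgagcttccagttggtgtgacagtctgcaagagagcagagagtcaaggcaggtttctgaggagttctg
In Isg15 the 3 matches overlap one another, whereas in Ifit1 the 2 matches lie apart and read in the reverse direction.

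A start region was found by symbol for 105 of the 136 genes called higher, and 27 of these (25.7%) held GAAANNGAAA on either strand. Of the genes tested at 24 h with a start region, 2.97% held it, and of all 27025 start regions searched, the share was 3.49%. Among the 91 genes called lower that had a start region 1 held it, the smooth muscle gene Mylk. A match describes these letters in this window and is not evidence of binding, and the motif was searched with the values known.

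Further families that interferon induces were listed after the values had been seen, so their count supports nothing on its own. Of 32 tested of the GTPase, IFI200, Schlafen, PARP and TRIM families, 18 were called higher, where 1.07% of all genes tested were. None of the 32 was called lower. Their median was 2 on the log2 scale, and 12 were called without H-CM replicate 1. Ifi203 and Mndal, members of the IFI200 family of DNA-binding proteins, varied little between H-CM libraries. Ifi203 measured 2.57, 3.46, 2.89 and 5.601 CPM in unstimulated and 41.9, 42.3, 30.3 and 31.9 CPM in H-CM EGCs (log2 3.28 ± 0.28, adjusted p = 3.77e-06). Mndal measured 0.641 to 1.68 CPM and 8.56 to 17.4 CPM (log2 3.53 ± 0.37, adjusted p = 1.38e-05). The exons of Ifi203 and Mndal overlap on the same strand of chromosome 1, so their counts are uncertain as separate genes. Gbp3, a GTPase of antimicrobial defence, rose by a log2 change of 3.49 ± 0.41 (adjusted p = 9.66e-05), Slfn2 by 2.92 ± 0.41 (adjusted p = 0.00136), the ubiquitin ligase gene Dtx3l by 2.41 ± 0.26 (adjusted p = 1.55e-05) and Trim25, which activates RIG-I, by 1.40 ± 0.21 (adjusted p = 0.000723). Dtx3l shares exon sequence with Parp9 on the opposite strand, itself a member of these families.

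Acute-phase genes showed large folds and a wide spread between H-CM libraries. Of 13 tested of 23 listed, 5 rose and none fell, with a median of 2.64, where 1.07% of all genes tested were called higher. Saa3, an acute-phase apolipoprotein made outside the liver, measured 43.6, 31.7, 29.7 and 28.7 CPM in unstimulated and 1815, 391.6, 222 and 270 CPM in H-CM EGCs (log2 4.35 ± 0.71, adjusted p = 0.0122). Lcn2, which withholds iron from bacteria by binding siderophores, measured 1.71, 1.82, 2.73 and 1.82 CPM and then 99.6, 20.9, 11.5 and 8.56 CPM (log2 4.12 ± 0.87, adjusted p = 0.0453). In both genes every H-CM library was above every unstimulated one, and H-CM replicate 1 held more than the other 3 together. Without H-CM replicate 1 the change of Saa3 was 3.155 (adjusted p = 1.66e-08) and that of Lcn2 2.79 (adjusted p = 6.46e-06). The calls of these genes were lost instead without an unstimulated library: Saa3 without replicate 2, 3 or 4 (adjusted p = 0.0523 to 0.0547), and Lcn2 without any of the 4 or without H-CM replicate 2 (adjusted p = 0.0620 to 0.147). Both calls were also lost when the fit held only the 8 libraries compared, in place of the 12 libraries of 24 h. Lcn2 was lost too with the replicate number as a block, with the share of Yam1 as a covariate and with limma-voom. Cp, the copper-carrying ferroxidase ceruloplasmin, rose from 4.69 ± 1.73 to 29.6 ± 19.2 CPM (log2 2.64 ± 0.44, adjusted p = 0.00807). Serpina3g, a protease inhibitor of a family of near-identical copies, was called at adjusted p = 0.0357 and lost its call without unstimulated replicate 3 or 4 or H-CM replicate 1 or 2 (0.0861 to 0.123). Hp, haptoglobin, had 1 count over the 4 unstimulated libraries and 36 over the 4 H-CM libraries, a ratio of 43.4 of counts over library totals with an exact 95% interval of 7.31 to 1.76e+03 that covers counting error only, and none of its counts were in H-CM replicate 4.

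Of 17 chemokine genes tested of 24 listed, 4 rose and none fell, where 1.07% of all genes tested were called higher. Their median was 1.70. Ccl2, which attracts monocytes, measured 78.5, 50.2, 36.1 and 35.6 CPM in unstimulated and 565, 192, 109 and 156 CPM in H-CM EGCs (log2 2.37 ± 0.51, adjusted p = 0.0472). Its neighbour on chromosome 11, Ccl7, measured 20.5, 13.1, 15.4 and 14.4 CPM and then 243, 74.7, 35.4 and 66.8 CPM (log2 2.75 ± 0.55, adjusted p = 0.0327). Cxcl1, which attracts neutrophils, measured 3.71, 2.002, 0.962 and 0.560 CPM and then 40.1, 12.1, 8.51 and 12.6 CPM (log2 3.52 ± 0.67, adjusted p = 0.0223). No H-CM library overlapped the unstimulated ones in any of these 3, and H-CM replicate 1 was again the highest in each. Without it the log2 change was 1.62 for Ccl2, 1.89 for Ccl7 and 2.75 for Cxcl1, and all 3 were called. Ccl8 rose by a log2 change of 3.36 ± 0.74 from levels of at most 0.364 CPM (adjusted p = 0.0144). These 4 calls were close to the threshold: between none and 6 chemokines were called when 1 library was left out. Ccl2 lost its call without any unstimulated library or H-CM replicate 2 (adjusted p = 0.0635 to 0.147), Ccl7 without any unstimulated library (0.0806 to 0.118), Cxcl1 without unstimulated replicate 2, 3 or 4 (0.0765 to 0.0821), and Ccl8 without unstimulated replicate 4 or H-CM replicate 1 (0.0531 and 0.0972, the latter with a log2 change of 2.68). With the replicate number as a block 7 chemokines were called. Ccl2 and Ccl7 lost their call when the fit held only the 8 libraries compared, and Cxcl1 with the share of Yam1 as a covariate. Ccl2, Ccl7, Cxcl1 and Ccl8 were all not called with limma-voom. Cxcl10, an interferon-induced chemokine for T cells, was not called, at 1.30 ± 0.759 and 6.27 ± 3.87 CPM (log2 2.36 ± 0.62, adjusted p = 0.0800), although its groups did not overlap. Il6 was at 0.140 to 1.997 CPM without and 0 to 3.62 CPM with H-CM and was not called (adjusted p = 0.885).

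**Figure D2:**
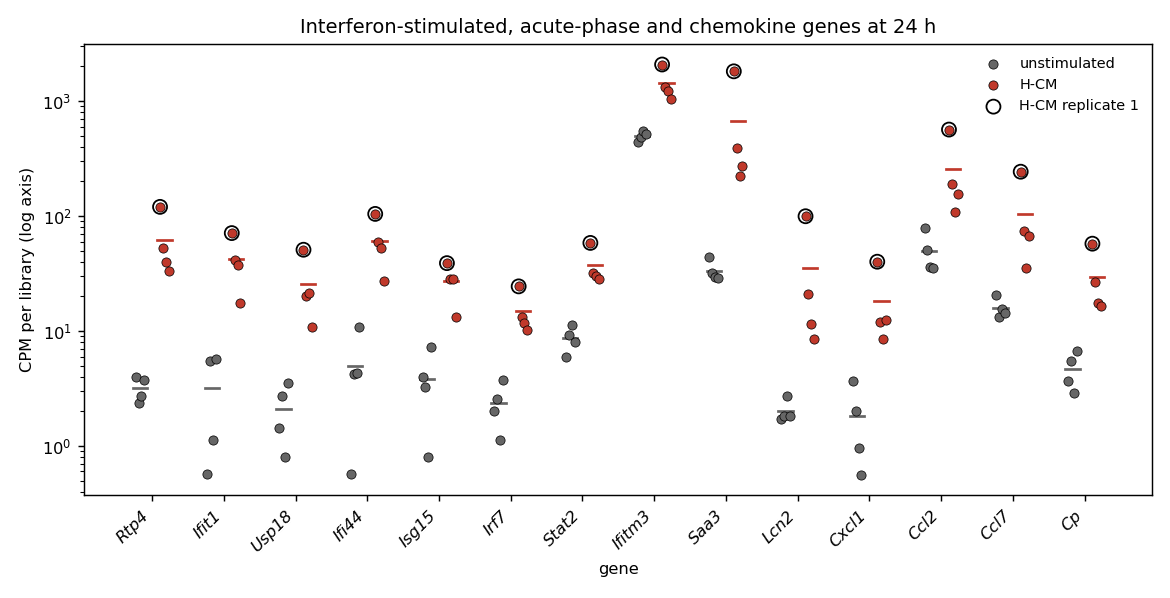
Level of 14 genes called higher in each library (CPM, log axis), unstimulated in grey and H-CM in red, with a bar at the mean of the 4 libraries of a group and a ring around H-CM replicate 1. In all 14 genes the H-CM libraries lie above the unstimulated ones, and the ringed library is the highest, at 1815 CPM for Saa3 against 222 to 391.6 CPM in the other 3.

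Genes of NF-kB and its feedback moved less. Of 21 tested among NF-kB subunits and feedback genes, 4 rose and none fell, where 1.07% of all genes tested were called higher. All 21 had a positive change with a median of 0.21. Nfkbia, the inhibitor that keeps NF-kB in the cytoplasm, went from 125 to 144 CPM over the unstimulated libraries to 203 to 265 CPM over the H-CM libraries (log2 0.73 ± 0.12, adjusted p = 0.00145). Nfkbiz, a nuclear co-factor needed for Lcn2 expression, rose from 15.9 ± 1.67 to 38.6 ± 13.8 CPM (log2 1.28 ± 0.21, adjusted p = 0.00122). Tnip1 and Bcl3 were called at adjusted p = 0.0131 and 0.0304. Without H-CM replicate 1, 2 of the 4 remained called, with Tnip1 at adjusted p = 0.0556 and Bcl3 at 0.125, and Bcl3 was also lost without unstimulated replicate 1, 3 or 4 (0.0792 to 0.123). Ier3, an early response gene that NF-kB induces, rose from 109 to 123 CPM over the unstimulated to 212 to 289.8 CPM over the H-CM libraries (log2 1.06 ± 0.13, adjusted p = 8.73e-05). Among 18 genes of the IL-6 family and STAT3, Cebpd rose (log2 1.10 ± 0.25, adjusted p = 0.0310) and the kinase gene Pim1 fell (log2 -0.60 ± 0.15, adjusted p = 0.0403). Cebpd lost its call without any unstimulated library (0.0656 to 0.119) and Pim1 without any library except H-CM replicate 4 (0.0577 to 0.126).

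Matrix-degrading enzymes rose while one of their inhibitors fell. Of 20 matrix metalloproteinases and inhibitors tested, 3 rose and 1 fell, where 1.07% of all genes tested were called higher and 0.960% lower. Mmp3, stromelysin, went from 6.45 ± 0.676 to 49.1 ± 32.6 CPM (log2 2.93 ± 0.50, adjusted p = 0.0111), and lost its call without unstimulated replicate 1, 2 or 4 (0.0503 to 0.0554), while its log2 change was 2.33 without H-CM replicate 1. Mmp13, a collagenase, went from 3.43 ± 1.84 to 16.1 ± 6.68 CPM (log2 2.23 ± 0.37, adjusted p = 0.00293) and Mmp10 from 68.4 ± 10.6 to 124 ± 14.8 CPM (log2 0.85 ± 0.15, adjusted p = 0.00249). Timp3, a tissue inhibitor of metalloproteinases held in the matrix, fell from 669, 719, 782 and 670 CPM to 410, 476, 502 and 474 CPM (log2 -0.61 ± 0.12, adjusted p = 0.00864). Timp1 was not called, at 169 ± 54.4 and 153 ± 92.4 CPM (log2 -0.14 ± 0.35, adjusted p = 0.961), and H-CM replicate 1 with 291 CPM was its only H-CM library above 115 CPM. Timp3 lies within the Syn3 locus and overlaps one of its exons on the other strand.

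Class I antigen presentation and complement moved in fewer members. Of all genes tested 1.07% were called higher. Of 20 antigen presentation genes 18 had a positive change with a median of 1, and 3 rose: Tapbp, the peptide-loading protein tapasin (log2 1.29 ± 0.24, adjusted p = 0.00980), Psmb10, a subunit of the immunoproteasome (log2 0.93 ± 0.22, adjusted p = 0.0262), and B2m, the light chain of class I molecules, which was at 1212 to 1589 CPM without and 1822 to 3036 CPM with H-CM (log2 0.74 ± 0.18, adjusted p = 0.0362). Tapbp lost its call without unstimulated replicate 1 (0.0644). Psmb10 lost it without unstimulated replicate 1, 3 or 4 or H-CM replicate 2 or 3 (0.0536 to 0.143). B2m lost it without unstimulated replicate 1, 3 or 4 or H-CM replicate 1 or 2 (0.0861 to 0.126). Tapbp shares exon sequence with Zbtb22 on the same strand, so its counts are uncertain as those of a separate gene. Of 14 complement genes, 2 rose. C1ra, a protease of the classical pathway, rose by a log2 change of 2.23 ± 0.38 (adjusted p = 0.00238), and Serping1, the inhibitor of that protease, by 0.74 ± 0.17 (adjusted p = 0.0231). Serping1 lost its call without any unstimulated library or H-CM replicate 1 (0.0545 to 0.0939).

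Genes that bind or move metals were raised by less than a factor of 2 in most cases, but in several of them at once. Of 14 tested, 6 rose, none fell and the median was 0.70, where 1.07% of all genes tested were called higher. Mt2, a metallothionein that binds zinc and copper, went from 100, 69.9, 71.7 and 72.1 CPM to 205, 132, 125 and 139 CPM (log2 0.94 ± 0.16, adjusted p = 0.00249). Mt1 went from 245 ± 52.6 to 386 ± 27.2 CPM (log2 0.66 ± 0.14, adjusted p = 0.0139). The ferroxidase gene Cp, described above, counted under this list too. Further iron genes among the 6 were Steap3, an iron reductase (log2 0.95 ± 0.21, adjusted p = 0.0131), Slc11a2, an iron importer (log2 0.74 ± 0.17, adjusted p = 0.0252), and Fth1, ferritin heavy chain, at 846 to 1523 CPM without and 1451 to 2533 CPM with H-CM (log2 0.79 ± 0.19, adjusted p = 0.0357), where unstimulated replicate 1 overlapped the H-CM group. Between 2 and 6 of the list were called when 1 library was left out: Mt1 was lost without unstimulated replicate 2, 3 or 4 or H-CM replicate 4 (0.0508 to 0.0686), Steap3 without unstimulated replicate 3 or 4 or H-CM replicate 3 (0.0503 to 0.0602), and Slc11a2 and Fth1 without unstimulated replicate 2, 3 or 4 or H-CM replicate 1 or 2 (0.0602 to 0.105 and 0.0861 to 0.124).

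A few genes of lipid storage and of lysosomes rose. Of 15 genes of the LXR and lipid efflux list 3 rose, where 1.07% of all genes tested were called higher. Plin2, which coats lipid droplets, went from 63.4 to 82.7 CPM over the unstimulated libraries to 106 to 169 CPM over the H-CM libraries (log2 0.95 ± 0.16, adjusted p = 0.00134). Fabp4, a fatty acid carrier, went from 3.52 ± 1.67 to 9.86 ± 2.60 CPM (log2 1.58 ± 0.31, adjusted p = 0.00547). Angptl4 was called (log2 3.16 ± 0.64, adjusted p = 0.00970) at 0.280 to 1.27 CPM without and 0 to 9.96 CPM with H-CM, and not without unstimulated replicate 3 or 4 (0.0523 and 0.0516), with a log2 change of 3.98 without unstimulated replicate 2. A list of 48 lysosomal genes, drawn up after the values had been seen, had 7 called higher and 46 with a positive change, with a median of 0.34, and its summed level was 11480 to 12830 CPM without and 15160 to 15710 CPM with H-CM. Tcirg1, a subunit of the proton pump, rose by a log2 change of 0.98 ± 0.20 (adjusted p = 0.00892). Gpnmb, Psap and Ctsl, a lysosomal glycoprotein, the saposin precursor and cathepsin L, were called at adjusted p = 0.0310, 0.0283 and 0.0310. Between 1 and 4 of the list were called when 1 library was left out. Tcirg1 was lost without H-CM replicate 1 (0.0520), Ctsl without unstimulated replicate 2, 3 or 4 or H-CM replicate 1 or 2 (0.0749 to 0.140), Psap without any of 6 libraries, all but unstimulated and H-CM replicate 1 (0.0534 to 0.128), and Gpnmb without any but unstimulated replicate 2 (0.0582 to 0.127).

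In the hypoxia list 2 of 18 rose, Stc1 (log2 1.47 ± 0.31, adjusted p = 0.00970) and Bnip3 (log2 0.66 ± 0.16, adjusted p = 0.0279), and neither was called without H-CM replicate 1 (0.0556 and 0.143). Stc1 was also lost without unstimulated replicate 3 (0.0531) and Bnip3 without unstimulated replicate 2, 3 or 4 (0.0524 to 0.128). In the antioxidant list 2 of 21 rose, Gstm1, a glutathione transferase (log2 0.77 ± 0.15, adjusted p = 0.00558), and Sod3, extracellular superoxide dismutase (log2 1.17 ± 0.27, adjusted p = 0.0213). Sod3 was lost without unstimulated replicate 2 or 4 or H-CM replicate 1 or 2 (0.0659 to 0.0993). Of all genes tested 1.07% were called higher, and the counts of 2 are read as values of single genes, not of the lists.

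Of the 24 genes named for the size of their change, several belonged to no list. Clec4n, which encodes the macrophage lectin Dectin-2, measured 0.285, 1.27, 0.641 and 0.140 CPM in unstimulated and 15.6, 17.2, 3.94 and 3.42 CPM in H-CM EGCs (log2 4.08 ± 0.76, adjusted p = 0.00718). Its call was lost with limma-voom (adjusted p = 0.207), in the model of all 36 libraries (0.246) and without both libraries numbered 1 (0.068), and its log2 change was 4.77 without unstimulated replicate 2. Marco, a scavenger receptor of macrophages, was too low for the size rule and is named here after its values were seen. It had 3 counts over the unstimulated libraries, all in replicate 4, and 190 over the H-CM libraries, at 8.83, 20.9, 4.07 and 2.28 CPM, a ratio of 76.4 of counts over library totals with an exact 95% interval of 25.7 to 374 that covers counting error only. The general macrophage markers did not separate the groups. Their summed level was 278.4, 241.5, 80.7 and 69.9 CPM in the unstimulated and 257.8, 411.2, 147.7 and 91.3 CPM in the H-CM libraries, none of the 12 tested was called, and Cd163 was at 0 in all 8 libraries. The part of macrophages in the levels of Marco and Clec4n was not tested. Sprr2b, a cornified envelope protein gene of chromosome 3, rose from 0.571, 0.182, 0.481 and 1.40 CPM to 35.1, 11.2, 6.41 and 10.8 CPM (log2 4.44 ± 0.70, adjusted p = 0.00545). The log2 change of Sprr2b was 3.64 without H-CM replicate 1 and 5.24 without unstimulated replicate 4, and it was not called with limma-voom (adjusted p = 0.121). Other small proline-rich genes of that region went the other way. Sprr2k fell from 29.7, 19.8, 27.8 and 44.2 CPM to 8.38, 9.70, 8.38 and 6.85 CPM (log2 -1.84 ± 0.30, adjusted p = 0.00145), and Sprr3 from 24.5, 15.3, 13.6 and 13.9 CPM to 1.81, 5.12, 3.82 and 9.70 CPM (log2 -1.84 ± 0.41, adjusted p = 0.0168). Members of the Sprr2 family are close copies, and since reads that mapped to several places were discarded their counts are uncertain. Sprr3 lost its call without unstimulated replicate 1 or H-CM replicate 1, 2 or 3 (0.0501 to 0.0829).

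Some developmental factors rose as well and are named after their values were seen. Sox9, a factor of neural crest and glial progenitors, went from 60.4 ± 13.5 to 103 ± 4.27 CPM (log2 0.76 ± 0.17, adjusted p = 0.0128, and 0.0536 without unstimulated replicate 3). Sox4 went from 754 ± 63.2 to 1144 ± 89.9 CPM (log2 0.60 ± 0.11, adjusted p = 0.00412) and Maf from 239 ± 46.0 to 411 ± 64.1 CPM (log2 0.78 ± 0.15, adjusted p = 0.00532). Pdpn, podoplanin, a glycoprotein of activated stromal cells, went from 94.6 ± 12.5 to 216 ± 65.7 CPM (log2 1.19 ± 0.17, adjusted p = 0.000248). Lgals3bp, a secreted protein that interferon induces, went from 25.9 to 43.9 CPM over the unstimulated to 148 to 253 CPM over the H-CM libraries (log2 2.28 ± 0.22, adjusted p = 1.48e-05).

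Genes of contractile cells formed the clearest group to fall. Of the 11 smooth muscle markers 9 fell, none rose, and all 11 had a negative change with a median of -1, where 0.960% of all genes tested were called lower. Without 1 library between 7 and 9 of them were called, and 3 in the model of all 36 libraries. Acta2, smooth muscle actin, measured 6246, 6846, 6737 and 6184 CPM in unstimulated and 2785, 3364, 2801 and 3030 CPM in H-CM EGCs, a 2.17-fold fall (log2 -1.12 ± 0.14, adjusted p = 6.26e-05). Tagln, the actin-bundling protein transgelin, measured 1049, 1124, 980 and 824 CPM and then 530, 566, 403 and 380 CPM (log2 -1.08 ± 0.14, adjusted p = 0.000109). In both genes the 4 libraries of a group lay close together and far from the other group, and H-CM replicate 1 did not stand apart. Cnn1, calponin, fell from 178 ± 21.5 to 80.7 ± 17.1 CPM (log2 -1.15 ± 0.18, adjusted p = 0.00101), Actg2, enteric smooth muscle actin, from 348 ± 65.2 to 150 ± 26.4 CPM (log2 -1.21 ± 0.22, adjusted p = 0.00532), and Des, the intermediate filament desmin, from 149 ± 12.9 to 74.6 ± 13.2 CPM (log2 -1.005 ± 0.15, adjusted p = 0.000452). Mylk, the kinase that starts contraction, fell by a log2 change of -0.86 ± 0.14 (adjusted p = 0.00149). Myh11, smooth muscle myosin, fell from 167 ± 64.2 to 75.0 ± 12.9 CPM (adjusted p = 0.0111), and Smtn and Myl9 were called lower at adjusted p = 0.0184 and 0.0255. Myh11 lost its call without H-CM replicate 1 (0.0501), Smtn without unstimulated replicate 2 or 3 or H-CM replicate 2, 3 or 4 (0.0554 to 0.0875), and Myl9 without unstimulated replicate 1, 2 or 3 or H-CM replicate 1 or 4 (0.0574 to 0.0998). Striated muscle genes named for their size fell alongside, with Acta1 at 34.2, 34.6, 38.8 and 47.0 CPM and then 10.6, 13.7, 12.8 and 24.0 CPM (log2 -1.41 ± 0.25, adjusted p = 0.00259) and Myom1 at 33.7 ± 10.8 and 12.5 ± 4.09 CPM (log2 -1.39 ± 0.27, adjusted p = 0.00583). The actins are near-identical in their coding parts, so the split of reads between them is uncertain.

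Genes of actin filaments and cell adhesion fell as well. In a list of 45 actin filament and focal adhesion genes, drawn up after the values had been seen, 22 were called lower and none higher. Of all genes tested 0.960% were called lower. All 45 had a negative change, with a median of -0.51. The list shares members with the smooth muscle markers, Mylk and Myl9 among those called. Their summed level was 44420 to 48520 CPM without and 29470 to 33570 CPM with H-CM. Without 1 library 10 to 22 were called, and 1 in the model of all 36 libraries. Vcl, vinculin, which links adhesion sites to actin, measured 384, 341, 344 and 321 CPM and then 202, 187, 194 and 203 CPM (log2 -0.82 ± 0.11, adjusted p = 0.000125). Csrp1 fell from 962 ± 74.6 to 506 ± 61.6 CPM (log2 -0.93 ± 0.12, adjusted p = 0.000125) and the tropomyosin gene Tpm2 from 791 ± 56.0 to 403 ± 51.8 CPM (log2 -0.97 ± 0.13, adjusted p = 0.000146). Actb, cytoplasmic actin, was the most abundant of the genes named, at 19540 ± 2370 and 13070 ± 1251 CPM (log2 -0.58 ± 0.14, adjusted p = 0.0349). Srf, serum response factor itself, fell from 129 ± 21.4 to 86.4 ± 8.27 CPM (log2 -0.58 ± 0.14, adjusted p = 0.0294). Actb lost its call when any library was left out (0.0525 to 0.146) and Srf without unstimulated replicate 3 or 4 or H-CM replicate 1, 2 or 4 (0.0659 to 0.160).

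The start regions of Vcl and Srf are shown because each holds a CArG box, the sequence that serum response factor is known to bind. They are RefSeq sequences of build GRCm38.p6, 300 bases from 250 before a start of transcription, 5' to 3' on the strand of the gene, with the CArG boxes in capitals. Vcl lies on the plus strand, chr14:20929148-20929447, and Srf on the minus strand, chr17:46556113-46556412. The whole Srf gene spans 46546838 to 46558267, so the start used for Srf lies inside that span.
Vcl: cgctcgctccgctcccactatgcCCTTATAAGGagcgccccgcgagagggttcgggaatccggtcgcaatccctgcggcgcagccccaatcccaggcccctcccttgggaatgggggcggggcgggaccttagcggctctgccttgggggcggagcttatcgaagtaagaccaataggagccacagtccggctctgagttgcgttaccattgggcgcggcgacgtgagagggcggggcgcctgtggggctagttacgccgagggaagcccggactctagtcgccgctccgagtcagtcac
Srf: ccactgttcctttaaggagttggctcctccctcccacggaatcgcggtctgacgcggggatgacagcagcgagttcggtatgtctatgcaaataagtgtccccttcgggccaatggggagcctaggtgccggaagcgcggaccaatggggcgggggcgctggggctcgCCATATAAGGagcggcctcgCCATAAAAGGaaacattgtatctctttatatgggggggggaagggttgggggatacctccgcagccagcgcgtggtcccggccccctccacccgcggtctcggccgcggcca
Of the 91 genes called lower with a start region, 10 (11.0%) held a CArG box on either strand, among them Acta1, Myom1, Myl9 and Dusp5, where 1.39% of the genes tested with a start region did. None of the 105 genes called higher with a start region held one. Of the 8 smooth muscle markers with a start region 1 held it, Myl9. The windows of Acta2 and Cnn1 held no match, which says only that these letters are not within those 300 bases. A match describes these letters in this window and is not evidence of binding, and the motif was searched with the values known.

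**Figure D3:**
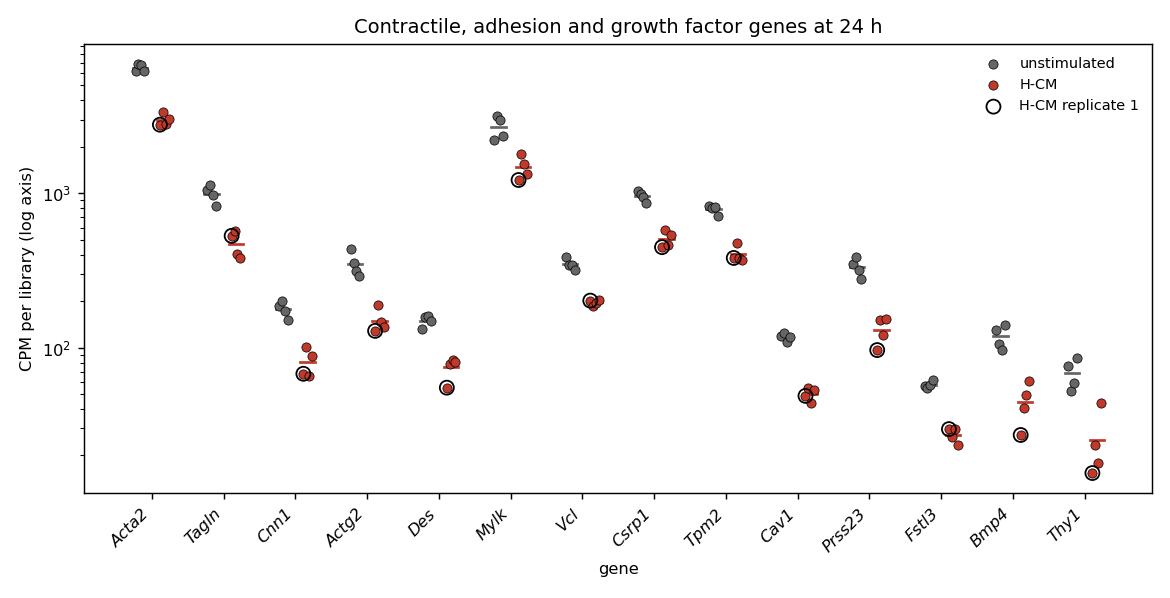
Level of 14 genes called lower in each library (CPM, log axis), unstimulated in grey and H-CM in red, with a bar at the mean of the 4 libraries of a group and a ring around H-CM replicate 1. In all 14 genes the H-CM libraries lie below the unstimulated ones, from 2785 to 3364 CPM against 6184 to 6846 CPM for Acta2, and the ringed library is the lowest H-CM library for 8 of the 14, Acta2, Actg2, Des, Mylk, Csrp1, Bmp4, Thy1 and Prss23.

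Caveolar and matricellular genes fell in the same libraries. Cav1, the main coat protein of caveolae, measured 120, 124, 109 and 118 CPM in unstimulated and 48.7, 54.5, 43.8 and 53.1 CPM in H-CM EGCs (log2 -1.24 ± 0.14, adjusted p = 1.87e-05). Its partners Ptrf (cavin-1, log2 -0.67 ± 0.13, adjusted p = 0.00441) and Prkcdbp (cavin-3, log2 -1.19 ± 0.22, adjusted p = 0.00397) fell too, and these 3 genes were picked after their values were seen. In a list of 24 YAP and TEAD targets, also drawn up afterwards, 6 were called lower, where 0.960% of all genes tested were. None of the list was called higher, and its median was -0.25. Ankrd1 fell from 309 ± 50.1 to 170 ± 31.0 CPM (log2 -0.87 ± 0.16, adjusted p = 0.00325) and Fstl3, a binder of activin, from 57.4 ± 2.87 to 27.3 ± 3.08 CPM (log2 -1.06 ± 0.16, adjusted p = 0.000515). Ctgf was called just within the threshold, at 1987 ± 554 and 888 ± 247 CPM (log2 -1.16 ± 0.28, adjusted p = 0.0499), and lost its call when any library was left out (0.0516 to 0.155). Thbs1, thrombospondin, was called at adjusted p = 0.0294 and lost without any of 6 libraries, all but unstimulated and H-CM replicate 1 (0.0785 to 0.135), with H-CM replicate 1 at 956 CPM inside the unstimulated range of 900 to 1136 CPM.

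Among 26 genes of BMP and TGF-beta signaling 4 fell and 1 rose, where 0.960% of all genes tested were called lower and 1.07% higher. Bmp4, a secreted growth factor of the gut wall, measured 131, 106, 96.9 and 140 CPM and then 27.2, 40.4, 49.2 and 61.0 CPM (log2 -1.44 ± 0.30, adjusted p = 0.0212). Grem1, which binds and blocks BMPs, went the other way, from 260, 343, 317 and 289 CPM to 509, 520, 518 and 476 CPM (log2 0.74 ± 0.13, adjusted p = 0.00249). The groups did not overlap in either gene. The ligand gene Tgfb3 fell from 126 ± 6.93 to 82.4 ± 12.4 CPM (log2 -0.61 ± 0.14, adjusted p = 0.0208). Bmp4 lost its call without unstimulated replicate 1, 2 or 4 or H-CM replicate 2 (0.0501 to 0.0806) and Tgfb3 without unstimulated replicate 2, 3 or 4 or H-CM replicate 1 or 4 (0.0521 to 0.0911).

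Of 36 collagens and other matrix genes tested 5 fell and none rose, where 0.960% of all genes tested were called lower. Their median was -0.30, and 2 to 10 were called when 1 library was left out. Fbln5, which organises elastic fibres, fell from 81.4 ± 9.41 to 40.0 ± 6.44 CPM (log2 -1.03 ± 0.18, adjusted p = 0.00269) and Tnc, tenascin C, from 680 ± 58.7 to 423 ± 47.3 CPM (log2 -0.69 ± 0.13, adjusted p = 0.00485). The cross-linking enzymes Lox and Loxl2 fell by log2 changes of -0.64 ± 0.14 (adjusted p = 0.0122) and -0.67 ± 0.14 (adjusted p = 0.00970). Col1a1, the main chain of type I collagen, was at 3515 to 5156 CPM without and 2749 to 3414 CPM with H-CM (log2 -0.53 ± 0.14, adjusted p = 0.0390). Lox was lost without unstimulated replicate 2 or 3 or H-CM replicate 3 (0.0510 to 0.0766), Loxl2 without unstimulated replicate 2 (0.0524), and Col1a1 without any library but unstimulated replicate 1 (0.0706 to 0.147). Thy1, a surface glycoprotein of fibroblasts and neurons, fell further than the collagens, from 75.9, 52.6, 59.3 and 85.7 CPM to 15.4, 23.4, 17.9 and 43.9 CPM (log2 -1.53 ± 0.28, adjusted p = 0.00558). Mcam and Cd248, surface proteins of pericytes and stromal cells chosen after their values were seen, fell by log2 changes of -1.25 ± 0.18 (adjusted p = 0.000314) and -1.09 ± 0.18 (adjusted p = 0.00149). Other stromal markers did not fall alike. Without and with H-CM, Pdgfra was at 34.1 and 54.7 CPM, Pdgfrb at 86.2 and 82.6 CPM and Dcn at 1100 and 1110 CPM, none called. Of 11 fibroblast markers tested 2 were called lower, Thy1 and Col1a1, and 3 had a positive change.

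Further genes that fell code for secreted or signaling proteins. Prss23, a secreted protease, measured 346, 387, 317 and 280 CPM and then 96.4, 151, 120 and 154 CPM (log2 -1.36 ± 0.17, adjusted p = 8.73e-05). Tnfrsf11b, osteoprotegerin, the decoy receptor of RANKL, fell from 76.1 ± 20.7 to 29.3 ± 7.95 CPM (log2 -1.37 ± 0.23, adjusted p = 0.00249). Hbegf, a ligand of the EGF receptor, fell from 158 ± 15.3 to 82.0 ± 4.99 CPM (log2 -0.95 ± 0.14, adjusted p = 0.000646). No other of 18 neurotrophic and growth factors was called, where 0.960% of all genes tested were called lower, so Hbegf is read as a single gene. Tgm2, a transglutaminase, fell from 56.1 to 76.7 CPM over the unstimulated to 23.96 to 37.1 CPM over the H-CM libraries (log2 -0.98 ± 0.18, adjusted p = 0.00383). Plaur, the urokinase receptor, measured 24.8, 16.8, 11.4 and 10.9 CPM and then 9.05, 2.38, 2.59 and 6.85 CPM (log2 -1.69 ± 0.39, adjusted p = 0.0223), with replicate 1 the highest of each group. Ntn4, Prr5 and Klhdc8a completed the genes named for their size, with log2 changes of -1.42 ± 0.30 (adjusted p = 0.0104), -1.58 ± 0.38 (adjusted p = 0.0276) and -1.33 ± 0.32 (adjusted p = 0.0252). Plaur lost its call without unstimulated replicate 1 or 2 or H-CM replicate 2 or 3 (0.0630 to 0.113), Ntn4 without unstimulated replicate 2 or H-CM replicate 2 or 3 (0.0524 to 0.0555), Prr5 without any library but unstimulated replicate 1 and H-CM replicate 2 (0.0501 to 0.127), and Klhdc8a without any but unstimulated replicate 2 and 3 (0.0526 to 0.103).

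Other lists held 1 or 2 members that fell, where 0.960% of all genes tested were called lower, and these counts are read as values of single genes, not of the lists: the thrombin receptor gene F2r, 1 of 22 receptors (log2 -0.46 ± 0.12, adjusted p = 0.0378), Ncam1, 1 of 11 myelin and Schwann cell genes (log2 -0.77 ± 0.17, adjusted p = 0.0200), Klf2, 1 of 23 immediate early genes (log2 -0.59 ± 0.15, adjusted p = 0.0335), and Mthfd2 and Psat1, 2 of 31 targets of ATF4 (adjusted p = 0.0157 and 0.0231). Each of these 5 lost its call without 4 to 7 of the 8 libraries, H-CM replicate 1 among them in all 5, with adjusted p up to 0.158.

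Markers of epithelium and lymphocytes, cells that the digested colon also holds, were low in both groups. Colon epithelium markers summed to 9.94 to 23.5 CPM without and 11.0 to 19.5 CPM with H-CM and lymphocyte markers to 11.6 to 24.8 and 7.42 to 13.1 CPM, and none of the 2 tested in each was called. Of 11 fibroblast markers 2 fell and none rose, where 0.960% of all genes tested were called lower. None of the 17 enteric glial markers tested was called with edgeR, and 1 was with DESeq2, with a median of 0.18 and a range from -0.47 to 0.79. The summed level of the 17 was 640 to 729 CPM without and 740 to 801 CPM with H-CM. No member was called either among 16 enteric neuron markers, 27 DNA replication and 30 mitosis genes, 25 sterol and 16 fatty acid synthesis genes, 21 glycolysis genes, 20 endoplasmic reticulum stress genes, 17 clock genes, 13 Wnt, Notch and Hedgehog targets, 15 prostaglandin genes, 15 genes of the IGF family, 11 of the IL-1 family, 11 of retinoid metabolism, or 6 AhR targets. Of the 65 counts of list members in 1 direction that were 0, 13 became 1 or 2 under some other setting. In these lists the median changes lay between -0.16 and 0.29, and a p-value above the threshold does not show that a gene stayed at the same level.

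**Figure D4:**
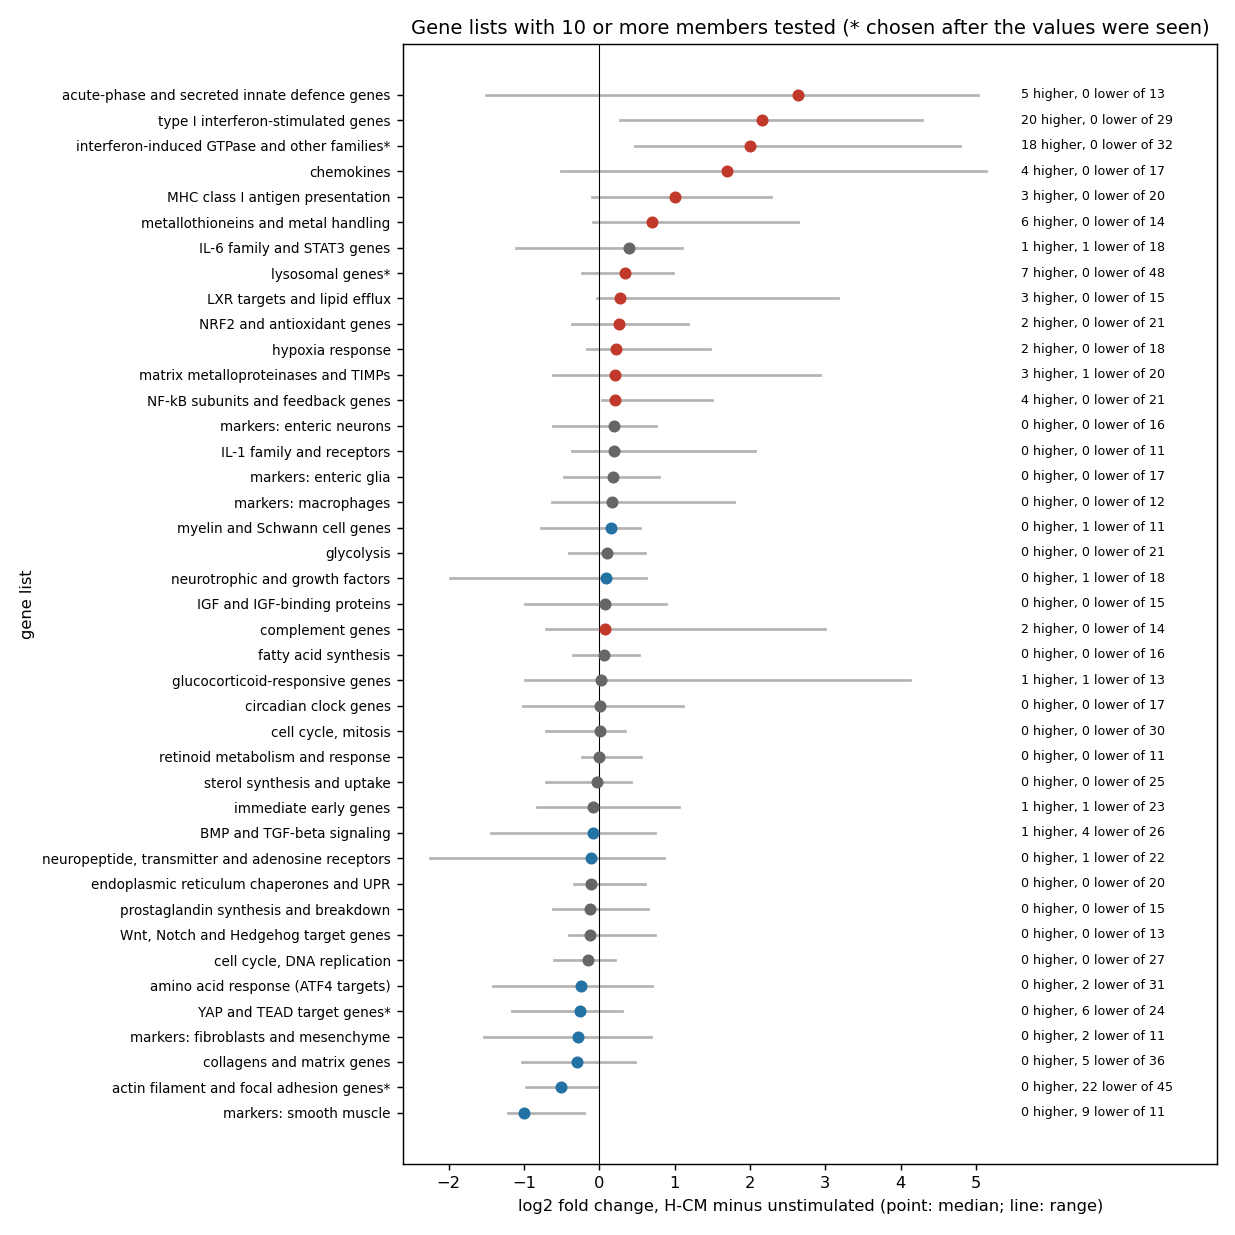
Median (point) and range (line) of the log2 fold change, H-CM minus unstimulated at 24 h, per gene list with 10 or more members tested. The number called in each direction is at the right. Red points are lists with more members called higher, blue those with more called lower. A star marks the 4 lists drawn up after the values were seen, and the others were chosen with earlier results of these data known. Acute-phase and interferon-stimulated genes stand at the top with medians of 2.64 and 2.16, and smooth muscle markers at the bottom with a median of -1.

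Most of the genes called at 24 h had a change of the same sign at 12 h in other libraries. At 12 h 49 of 12156 genes were called (0.403%), and 44 of them were among the 258 of 24 h, which is 89.8% of the 12 h calls and 17.1% of the 24 h calls. Of 134 genes called higher at 24 h that were tested at 12 h, 132 had a positive change there (98.5%), as had 50.1% of all genes tested at both times. Of 122 called lower, 114 had a negative change at 12 h (93.4%). At 6 h none of 9256 genes was called (0.00%), with edgeR or with DESeq2, where 58 and 86 had an unadjusted p under 0.05. The libraries of 6 h were shallower, with 13518 counts in H-CM replicate 4 and 256453 in unstimulated replicate 3, and Yam1 took 13.1% to 46.3% of the counts of the unstimulated libraries of 6 h. Leaving out H-CM replicate 4 also gave 0 calls, with 62 at an unadjusted p under 0.05. Changes at 6 h were not detected and are not shown to be absent. The parts of depth and of the spread between libraries in this were not tested. No gene was called for a change of the effect from 12 h to 24 h (0 of 12732, 0.00%), where 309 had an unadjusted p under 0.05, and DESeq2 called none with 407.

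Gene lists at 12 h are given by their counts, with no difference in time shown by a test. Of 28 interferon-stimulated genes tested at 12 h 14 were called higher, with a median of 2.51. Rtp4 was at 0.899 ± 0.735 and 49.5 ± 48.6 CPM at 12 h (log2 5.42 ± 0.85, adjusted p = 0.0171) and Isg15 at 1.57 ± 0.533 and 29.7 ± 21.2 CPM (log2 4.37 ± 0.63, adjusted p = 0.00277). The 4 chemokines called at 12 h included Ccl2 (log2 2.91 ± 0.34, adjusted p = 0.000298) and Ccl7 (log2 3.56 ± 0.34, adjusted p = 3.40e-05), with smaller adjusted p than at 24 h. None of the 11 smooth muscle markers was called at 12 h, where their median was -0.45. For Acta2 the unstimulated level was 3692 ± 174.2 CPM at 12 h and 6503 ± 337 CPM at 24 h, whereas the H-CM level was 2843 ± 441 CPM at 12 h and 2995 ± 270 CPM at 24 h. Cnn1 gave 93.2 ± 11.0 and 178 ± 21.5 CPM without H-CM, and 73.4 ± 20.7 and 80.7 ± 17.1 CPM with it. By these levels the unstimulated libraries of 24 h were above those of 12 h for these genes, while the H-CM libraries of the 2 times overlapped. CPM were scaled separately at each time, so levels of different times are not on a common scale. The change of the H-CM effect between the times had an unadjusted p of 0.000481 for Acta2 and 0.00622 for Cnn1 and did not pass adjustment (adjusted p = 1 for both, edgeR).

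**Figure D5:**
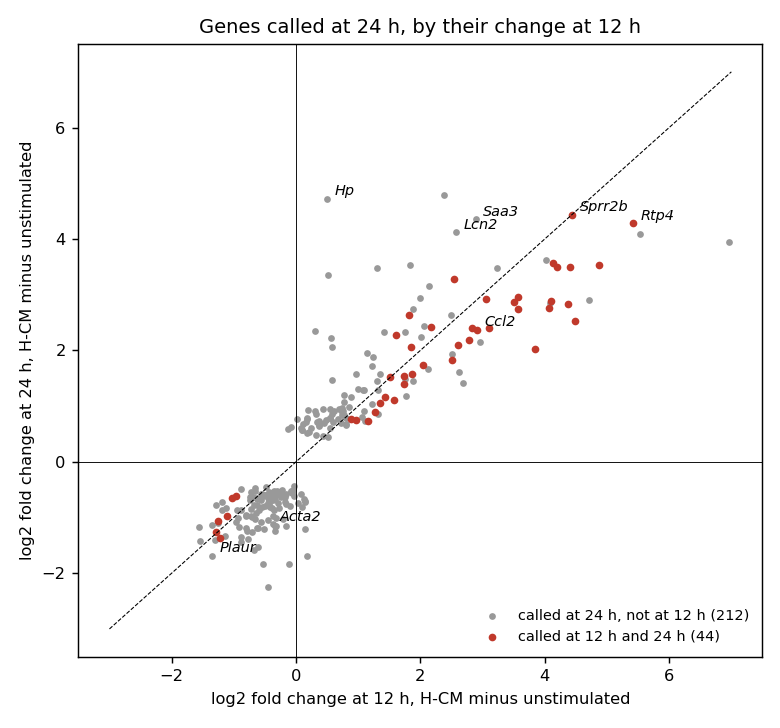
Log2 fold change, H-CM minus unstimulated, at 12 h (x axis) and at 24 h (y axis) of the 256 genes called at 24 h that were tested at both times, with the line of equal change dashed. The 44 red points were also called at 12 h, and 246 of the points (132 and 114) lie in the quadrants of equal sign.

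EGCs given medium of tumor tissue (TME-CM) for 24 h, which are compared with the same unstimulated libraries, gave other levels for some of the same genes. Between TME-CM and H-CM 686 of 12713 genes were called (5.40%). Saa3 averaged 17160 ± 2572 CPM in TME-CM EGCs against 675 ± 764 CPM in H-CM EGCs (log2 4.67 ± 0.70, adjusted p = 0.00337), and Lcn2 1127 CPM against 35.1 CPM (log2 4.97, adjusted p = 0.00218). The type I interferon-stimulated genes summed to 4398 CPM in TME-CM EGCs (3428 to 5024 CPM) and 2396 CPM in H-CM EGCs (1681 to 3634 CPM). These ranges overlapped, and Ifitm3 alone averaged 2825 and 1423 CPM. The further interferon families summed to 1357 CPM (747.7 to 1805) and 549 CPM (341.2 to 840.1), which overlapped too. Differences of the sums were not tested. Ifi203 (1.33, adjusted p = 0.000893), Gbp3 (1.48, adjusted p = 0.00616) and Mndal (1.14, adjusted p = 0.0138) were higher in TME-CM than in H-CM EGCs by these log2 differences, and the difference of Ifit1 (1.22, adjusted p = 0.188) did not pass. Rtp4 averaged 111 CPM and 61.4 CPM (log2 difference 0.83, adjusted p = 0.310), Usp18 39.9 and 25.8 CPM (0.59, adjusted p = 0.512) and Ddx58 84.5 and 80.0 CPM (0.07, adjusted p = 0.901), while Ifitm3 was higher in TME-CM EGCs (0.99, adjusted p = 0.000861). Acta2 was lower still in TME-CM EGCs, at 1726 CPM (log2 difference -0.80, adjusted p = 0.000708). Higher in TME-CM than in H-CM EGCs were Ankrd1 (0.84, adjusted p = 0.00175) and Lox (0.80, adjusted p = 0.000705). Marco averaged 1.52 CPM in TME-CM and 9.01 CPM in H-CM EGCs (log2 difference -2.55, adjusted p = 0.0199).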

How the data were processed

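The deposited table held whole-number counts of reads per gene for 36 libraries, made by the authors from 3' mRNA libraries: quality checks with FastQC 0.11.7, alignment to mm10 with HISAT2 with multi-mapping reads discarded, SAMtools 1.5, and counting per gene. The gene annotation, whether strand was used and whether molecular identifiers were counted are not given in the sources used here. From these counts, genes that pass edgeR's filterByExpr with a minimum count of 10 were fitted by edgeR 4.0.16 (R 4.3.3, TMM scaling, robust quasi-likelihood test, Benjamini-Hochberg adjusted p under 0.05) with the 12 libraries of the time point, and the change of effect with 16 libraries. The standard error is the log2 change over the root of F. Alternatives used DESeq2 1.42.0 and limma 3.58.1. The fits were tested on simulated data. The rule for named genes took, in each direction, the 12 called genes that changed most, were at 5 CPM or more on average and did not overlap between groups. From each list it took up to 4 called members by smallest p or, with fewer than 2 called, up to 2 by level, and 10 fixed genes. Other genes are said to be chosen later. The members and gene lists were chosen with earlier results of these data known. Positions and start regions are from RefSeq, GRCm38.p6, matched by symbol or synonym, with a single start region per gene, so other starts of a gene were not searched. Some items are not reported here.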

Additional observations from a re-analysis of the deposited data

Results flagged for a closer look

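In 260 groups of 4 libraries (each named gene, without and with H-CM), 34 held 1 library far from the other 3 by Dixon's criterion at 95%, which is 13.1%. For normally distributed values the criterion flags about 1 in 20. It was applied to CPM that were not log-transformed, and some flags rest on few counts. Hp had 1 count and Marco 3 counts over the unstimulated libraries. The 13.1% is therefore not a measured excess over chance. H-CM replicate 1 was the library far from the others, on the high side, in 16 of the 34. Its level was 1815 CPM for Saa3, 314.7 for Serping1, 291.3 for Timp1, 253.1 for Bst2, 252.6 for Lgals3bp, 99.6 for Lcn2, 97.3 for Mmp3, 59.1 for Nfkbiz, 58.4 for Stat2, 51.6 for Bnip3, 41.2 for Slc11a2, 40.1 for Cxcl1, 35.1 for Sprr2b, 31.7 for Gbp3, 26.03 for Mmp13 and 21.3 CPM for Bcl3. Other H-CM libraries stood high for Prr5 (5.31 CPM) and Tpm2 (479.8 CPM) in replicate 2 and for Ankrd1 (216.2 CPM) in replicate 4.

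Among unstimulated libraries, replicate 1 stood high for Mt2 (100.4 CPM), Pdpn (113.3), Slfn2 (7.13) and Sprr3 (24.5) and low for Dusp5 (74.2 CPM). Replicate 2 stood high for Angptl4 (1.27 CPM), B2m (1589) and Steap3 (15.8) and low for Serping1 (108.8 CPM). Replicate 3 stood high for Hp (0.160 CPM), Lcn2 (2.73) and Sod3 (8.50) and low for Cxcl10 (0.160 CPM), and replicate 4 high for Marco (0.420 CPM) and Sox10 (91.8 CPM).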

How the results depend on the processing

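At 24 h, where 258 genes were called, 446 were called with no filter on low counts, 410 with DESeq2, 426 with the share of Yam1 as a covariate, 122 with a log2 change of at least 1 also required, and 34 with all 36 libraries in one model, of which 31 were among the 258. With the replicate number as a block 245 were called, 221 of them among the 258. With only the 8 libraries compared 280 were called, 227 of them among the 258. Saa3, Lcn2, Ccl2, Ccl7, Serpina3g, Cebpd, Pim1, Fth1, Bnip3 and Thbs1 then lost their call. Leaving out 1 library gave 161 to 250 calls, with 162, 164 and 161 without unstimulated replicate 2, 3 and 4. Leaving out both libraries numbered 1, an alternative chosen after seeing the data, gave 216. No gene of the 258 changed sign under any of these. The share of calls that were higher was 52.7% and ranged from 42.5% with limma-voom to 88.2% with all 36 libraries, and the scaling by DESeq2 size factors gave 53.1%. Deviations of libraries with the same number correlated at 0.125, 0.0707, 0.0508 and 0.129, and 7 of 8 libraries correlated best with their own number. The main test did not use the replicate number, so its p-values leave out any pairing of libraries by number. With the replicate number as a block 8 named genes lost their call. At 12 h, where 49 genes were called, 168 were called with no filter, 98 with DESeq2 and 28 with the 8 compared libraries alone; the replicate block gave 40 and leaving out 1 library 23 to 57. At 6 h the replicate block gave 0, no filter gave 1 and leaving out 1 library 0 to 0. For the change from 12 h to 24 h no filter gave 10, the replicate block 0 and leaving out 1 library 0 to 0. The causes were not tested. Of 4 uncalled genes the sign depended on the setting: Il6 (-0.16 to 1.061 when 1 library was left out, lowest without H-CM replicate 1), Timp1 (-0.659 without H-CM replicate 1, and 0.11, 0.0021 and 0.034 without unstimulated replicate 1, H-CM replicate 2 and H-CM replicate 3), Sox10 (-0.036 without both libraries numbered 1, -0.0033, -0.022 and -0.0070 without unstimulated replicates 1, 2 and 3, -0.00071 without H-CM replicate 1, and up to 0.1705 without unstimulated replicate 4) and Gfap (0.051 without both libraries numbered 1). With 4 libraries a group and 1608018 counts in the shallowest, small changes of genes at few CPM could not be detected.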
